A study of Mus musculus with 14 samples.

Results

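Of 17807 mouse loci, the 494 described here have a pair of 3' ends less than 100 nt apart. Poly(A) sites of a strand were joined into a locus wherever neighbours lay within 2000 nt, and a locus was kept when it held exactly 2 sites under 100 nt apart. Each site needed 60 or more counts over the 2 control and 4 actinomycin D libraries. Another 646 loci with 2 sites this close had fewer counts at an end and were left out, so 1140 such loci were in the table in all. If the mRNAs that end at the 2 sites of such a locus differ in nothing else, their 3' untranslated regions are the same except for 21 to 99 nt at the end. No annotation was at hand to check this. Such loci would then show how much the ends of a locus differ when their sequence hardly does.

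The 3' end of an mRNA is made by cleavage of the transcript and addition of a poly(A) tail, and a poly(A) signal can direct cleavage at several nearby positions. The end closer to the coding region is called proximal and the end farther from it distal. A distal end adds sequence that can hold sites for microRNAs and RNA-binding proteins, which act on mRNA decay and translation. Actinomycin D stops transcription, so that the mRNAs made earlier decay, and a sucrose gradient separates mRNAs by the number of ribosomes they carry.

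The cells were 3T3, a mouse fibroblast line, and the assay was 2P-Seq, which primes on the poly(A) tail and sequences the 3' end of poly(A)-selected RNA partly cut with RNase T1. The libraries were control 1 and control 2, then 1 library each after 1, 2, 4 and 8 h in actinomycin D at 10 µg/ml, and 1 library for each of 6 fractions of a single sucrose gradient of 3T3 cells. The fractions are numbered 1 to 6 by the ascending number in the table's column names, taken to run from light to heavy. The 2 libraries made by 3P-Seq were not analysed here. Decay libraries held 4045420 to 6433503 counts and gradient libraries 1663346 to 11575417. The close loci took 6.37% (fraction 1) to 8.50% (control 1) of them, and 59.4% (fraction 1) to 65.7% (fraction 6) of their counts were at distal ends. No gene names accompany the sites, so loci are given by their positions in mm9.

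The ends of a close locus were 21 to 99 nt apart, with a median of 32 nt and quartiles of 23 and 56 nt. Short distances were the most frequent: 154 loci (31.2%) had ends 21 to 24 nt apart, and 224 had ends 20 to 29 nt apart, against 24 with ends 90 to 99 nt apart. Over all 15783 neighbouring sites of the table, a single pair was closer than 21 nt, so 21 nt is close to the smallest distance at which the annotation keeps sites apart. The loci lay on 20 chromosomes, 246 on the plus and 248 on the minus strand. The weaker end of a locus held 60 to 85313 counts over the 6 decay libraries, with a median of 275.5. At that end 252 loci had fewer than 300 counts, 143 had 300 to under 1000, and 99 had 1000 or more.

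The distal end was the stronger in 293 loci and the proximal end in 200, and 1 locus had equal counts. Both ends were well used in many loci: 175 had ends within 2-fold of each other, 190 had a distal end at least 2-fold stronger and 129 a proximal end at least 2-fold stronger. The stronger end was the same in both controls for 469 loci and in all 6 decay libraries for 404. In 58 loci the stronger end at 8 h differed from that in the mean of the controls.

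In a minority of the nearest loci the counts of both ends agreed more closely than separately counted reads would. Agreement was measured as the chi-square per degree of freedom of the split between the ends over the 12 libraries, which is 1 on average for independent reads with a constant split and above 1 where the split varies. It had a median of 1.99 in 269 loci 21 to 35 nt apart and of 4.00 in 225 loci 36 to 99 nt apart, against 4.63 in 366 loci with 2 ends 100 to under 500 nt apart and 5.63 in 382 loci with 2 ends 500 to 2000 nt apart, chosen by the same count minimum. It was above 1 in 191 of the 269 loci 21 to 35 nt apart. It was under 1 in 78 of the 269 loci 21 to 35 nt apart (29.0%), in 3 of the 225 loci 36 to 99 nt apart (1.33%) and in 4 of the 382 loci 500 to 2000 nt apart (1.05%). Values under 0.25 occurred in 25 loci, with ends 21 to 34 nt apart, and in 0 of the 225 loci 36 to 99 nt apart.

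A locus on chromosome 5 (minus strand, distal end 31489934, proximal end 31489956, 22 nt apart) had the lowest value, 0.0119, and is named after its values were seen. Its distal end held 221, 181, 177, 149, 49 and 15 counts in control 1, control 2 and the 1, 2, 4 and 8 h libraries, and its proximal end held 216, 176, 174, 146, 47 and 14. Over fractions 1 to 6 the distal end held 46, 180, 218, 177, 264 and 828 counts and the proximal end 46, 178, 211, 175, 263 and 820. The ends differed by at most 8 counts in any library. On chromosome 1 (plus strand, distal 44853686, proximal 44853660, 26 nt apart, value 0.0269) the distal end held 44, 140, 103, 54, 56 and 65 counts in the decay libraries and the proximal end 44, 135, 104, 53, 56 and 65. Both loci gave nearly the same count at either end in every library, while the locus on chromosome 5 lost most of its reads over the 8 h.

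Of the 25 loci under 0.25, 24 had 45 to 55% of their reads at the distal end, against 47 of all 269 loci 21 to 35 nt apart. The same distance limit was seen over the whole table, which includes close loci and the same libraries, so it is no separate check. Among neighbouring sites of any locus with 200 or more counts each, 83 of 1041 pairs 21 to 35 nt apart were under 0.25, the widest at 35 nt, and 0 of 940 pairs 36 to 99 nt apart. Whether reads near both sites were entered at each of them is not recorded in the table and was not tested. Since some of these differences are smaller than separate counts of independent reads would give, results below are also given for loci 36 to 99 nt apart, a division chosen after seeing these values.

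**Figure D1:**
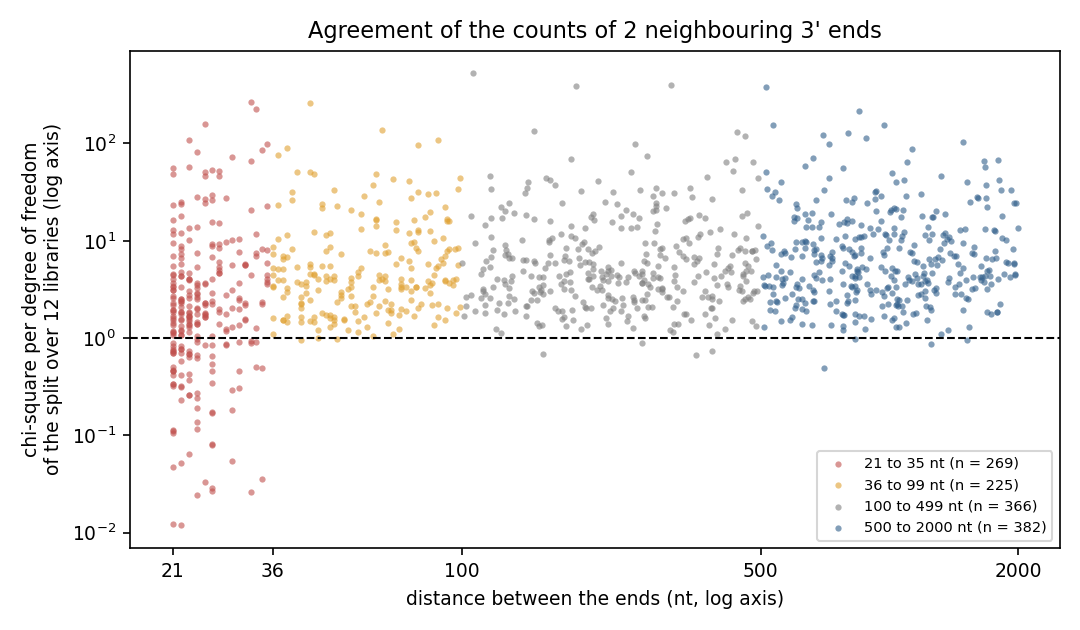
Chi-square per degree of freedom of the split of reads between the 2 ends of a locus over 12 libraries (log axis) against the distance between the ends (nt, log axis), 1 point per two-end locus, coloured by distance class; the dashed line is 1, the mean for independent reads with a constant split. Points well under the line sit between 21 and 35 nt, where 25 of 269 loci lie under 0.25.

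The same pattern stood in the difference between the 2 control libraries, which are among the 12 libraries used above. For loci 21 to 35 nt apart, the log2 ratio of distal to proximal counts differed between control 1 and control 2 by a median of 0.16 in size, where counting error alone would give 0.18. For loci 36 to 99 nt apart it differed by 0.37, where counting error would give 0.24. Loci 500 to 2000 nt apart differed by 0.45, with 0.25 from counting error. With 1000 or more counts at the weaker end the sizes were 0.077 in 70 loci 21 to 35 nt apart, 0.25 in 29 loci 36 to 99 nt apart and 0.25 in 41 loci 500 to 2000 nt apart. Between the controls, well-counted loci 36 to 99 nt apart thus varied as much as loci 500 to 2000 nt apart, and those 21 to 35 nt apart varied less. Counting error here takes each read as an independent molecule, although PCR copies are counted too.

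Of the 6 close loci with the most reads at the weaker end, 5 kept their split through 8 h of actinomycin D within a few percentage points. The exception, on chromosome 10, is described with the called loci. On chromosome 6 (minus strand, distal 115755523, proximal 115755546, 23 nt apart), the distal end held 17751, 17065, 19855, 22040, 20050 and 19669 counts in control 1, control 2 and at 1, 2, 4 and 8 h, and the proximal end held 12846, 12416, 14678, 16287, 14481 and 14605. The distal share stayed between 57.4% at 8 h (Wilson 95% interval 56.9 to 57.9) and 58.1% at 4 h (57.5 to 58.6), and the log2 ratio had a slope of -0.0025 ± 0.016 per h (SE). In the gradient the share of this locus ran from 56.5% in fraction 5 (Wilson 95% interval 55.8 to 57.3) to 58.6% in fraction 1 (57.9 to 59.3). These fractions thus differed beyond counting error. Further loci with many reads at both ends, on chromosome 15 (plus strand, distal 58771056, proximal 58771026, 30 nt apart), chromosome 14 (plus strand, distal 75149661, proximal 75149638, 23 nt) and chromosome 7 (plus strand, distal 150253838, proximal 150253814, 24 nt), had slope differences of -0.0066 ± 0.018, 0.0054 ± 0.019 and 0.0019 ± 0.021 per h.

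The locus on chromosome 3 (plus strand, distal 93368564, proximal 93368538, 26 nt apart) had a higher distal share in the gradient, with no called slope along either experiment. Its distal share was 76.7, 79.0, 78.6, 76.6, 77.3 and 77.5% in control 1, control 2 and at 1, 2, 4 and 8 h, and 81.4, 79.9, 81.3, 81.6, 82.1 and 80.5% in fractions 1 to 6. All 6 gradient shares lay above all 6 decay shares, a difference between libraries made from a gradient and from whole RNA that was not tested. The controls themselves differed beyond counting error (Wilson 95% intervals 76.0 to 77.3 in control 1 and 78.4 to 79.6 in control 2). The interval of control 2 overlapped that of fraction 2 (79.1 to 80.6). At the smallest distance, 21 nt, the locus with the most reads (chromosome 7, plus strand, distal 29607284, proximal 29607263) kept a distal share of 21.3 to 25.4% over the decay libraries and of 22.3 to 25.3% over the gradient. At the largest, 99 nt, the locus on chromosome 17 (minus strand, distal 34738035, proximal 34738134) varied far more: the distal end held 386, 120, 28, 21, 287 and 291 counts in control 1, control 2 and at 1, 2, 4 and 8 h, and the proximal end 38, 52, 42, 74, 44 and 56. Its distal share was 91.0% in control 1 (Wilson 95% interval 87.9 to 93.4) and 69.8% in control 2 (62.5 to 76.1), so the controls differed beyond counting error. The slope difference was 0.14 ± 0.22 per h (edgeR adjusted p = 0.756).

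To ask whether the ends of a locus decay at different rates, the counts of both ends were fitted with a term per library, a term for the end and a slope of the distal/proximal ratio on hours, over all 3844 pairs of ends in the table. A negative slope difference means that the distal end lost ground to the proximal end. In the table, 126 pairs (3.28%) had a distal end with a lower slope and 39 (1.01%) a distal end with a higher slope (edgeR quasi-likelihood test, Benjamini-Hochberg adjusted p under 0.05). Of the 494 close loci, 14 were called with a lower distal slope, 2.83% and thus near the share in the table, and 0 with a higher one. Unadjusted p-values were under 0.05 for 72 lower and 19 higher distal slopes, together 18.4% of close loci, below the 23.5% of all 3844 pairs. DESeq2 called 31 and 0 close loci. No share over all pairs is given for DESeq2, so its counts show neither an excess nor a deficit in close loci.

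Every one of the 14 called loci had the distal end as the stronger in the controls and a distal share at 8 h below that of both controls. In 12 of them the proximal end rose relative to the library in the fit of single ends described below, and in 0 it fell, while the distal end fell in 2 and rose in 6. They were 8 loci 21 to 35 nt apart and 6 loci 36 to 99 nt apart, and 0 of the 14 had a chi-square per degree of freedom under 1, the lowest being 4.09. A lower share at 8 h and a value above 1 follow largely from the call itself, which picks splits that changed over the decay libraries. The 6 largest slope differences are described next, and 2 called loci on chromosome 18 are not named.

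The largest difference was on chromosome X (plus strand, distal 132781675, proximal 132781642, 33 nt apart). The distal end held 224, 375, 429, 338, 272 and 360 counts in control 1, control 2 and at 1, 2, 4 and 8 h, and the proximal end held 18, 15, 7, 40, 82 and 276 in the same libraries. In CPM, the raw count scaled to the library total, the distal end held 38.3 and 58.3 in control 1 and control 2 and 89.0 at 8 h, and the proximal end 3.08, 2.33 and 68.2, so both ends were higher at 8 h and the proximal end by far more. The distal share was 92.6% in control 1 (Wilson 95% interval 88.6 to 95.2) and 96.2% in control 2 (93.8 to 97.7), and 56.6% at 8 h (52.7 to 60.4). The slope difference was -0.53 ± 0.09 per h (edgeR adjusted p = 0.0300, and 2.67e-05 to 0.237 over the alternatives). In fractions 1 to 6 of the gradient the distal end held 102, 136, 985, 4278, 2293 and 1150 counts against 3, 2, 7, 65, 35 and 24 at the proximal end, so the distal end took 97.1 to 99.3% in every fraction.

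On chromosome 5 (minus strand, distal 115592990, proximal 115593052, 62 nt apart) the distal end held 254, 230, 205, 366, 380 and 382 counts and the proximal end 23, 8, 13, 65, 87 and 204. The proximal end again gained reads at 2, 4 and 8 h. The slope difference was -0.38 ± 0.06 per h (edgeR adjusted p = 0.0267, and 7.51e-05 to 0.199 over the alternatives). The most abundant called locus was on chromosome 10 (minus strand, distal 128061585, proximal 128061617, 32 nt apart), with 1765, 1777, 1947, 2171, 2599 and 2243 counts at the distal end and 1182, 781, 650, 2006, 3098 and 5534 at the proximal end. Its controls differed by more than counting error, with a distal share of 59.9% in control 1 (Wilson 95% interval 58.1 to 61.6) and 69.5% in control 2 (67.7 to 71.2). The share at 8 h was 28.8% (27.8 to 29.9). The slope difference was -0.30 ± 0.06 per h (edgeR adjusted p = 0.0373, and 2.18e-04 to 0.309 over the alternatives). The stronger end of this locus was thus the distal one in the controls and at 1 and 2 h, and the proximal one at 4 and 8 h. In the gradient, whose cells had no actinomycin D in the labels, its distal share was 31.5% (fraction 1, Wilson 95% interval 28.8 to 34.3) to 47.1% (fraction 3, 44.7 to 49.5), below both controls in every fraction.

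**Figure D2:**
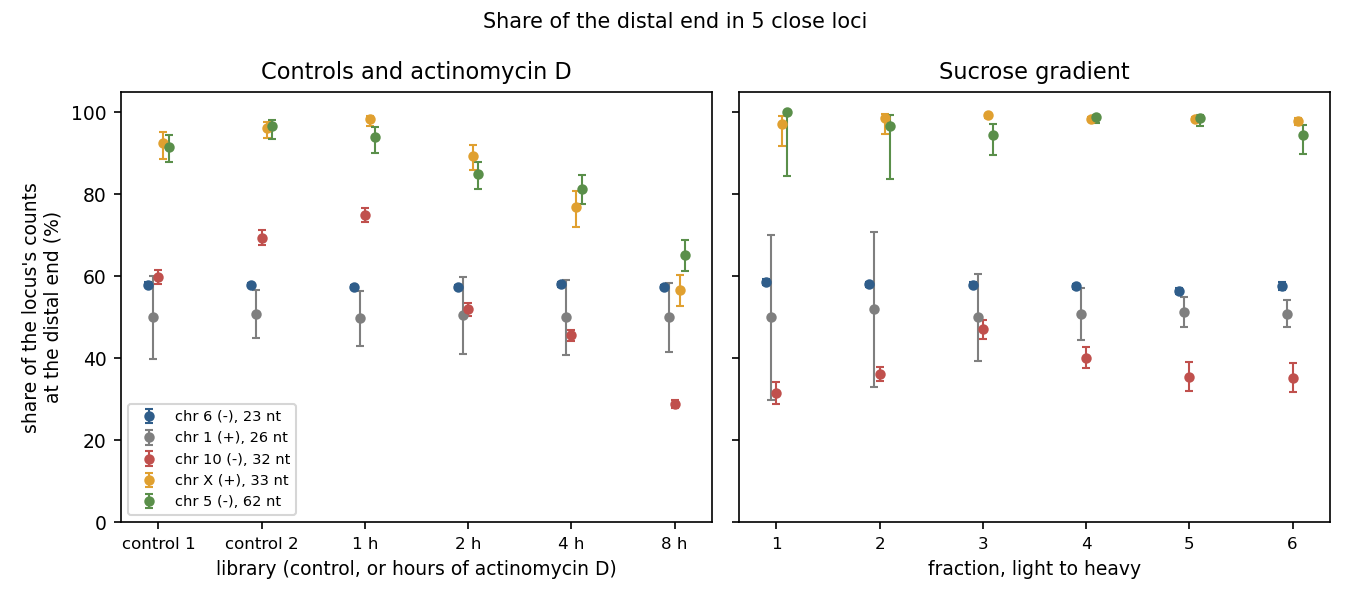
Share of a locus's counts at the distal end (%) in each library, with Wilson 95% intervals, for 5 close loci: decay libraries on the left, gradient fractions on the right. Over all 12 libraries the share stays within 56.5 to 58.6% on chromosome 6 and 49.8 to 52.2% on chromosome 1. The distal share of the loci on chromosomes 10, X and 5 is lowest among the decay libraries at 8 h (28.8, 56.6 and 65.2%).

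The remaining 3 of these 6 loci had few reads at the proximal end. On chromosome 17 (minus strand, distal 24859007, proximal 24859034, 27 nt apart) the distal end held 756 to 1265 counts, and the proximal end held 12, 6, 3, 10, 19 and 49 in control 1, control 2 and at 1, 2, 4 and 8 h (slope difference -0.38 ± 0.08 per h, edgeR adjusted p = 0.0401, and 0.00452 to 0.586 over the alternatives). Without the 8 h library that proximal end held 50 counts, under the minimum of 60, so the locus was included through the library in which that end was highest, and its call is given as a description. This held for 2 of the 14 called loci and 17 of all 494. On chromosome 15 (minus strand, distal 98554800, proximal 98554863, 63 nt apart) the distal end held 260, 287, 315, 302, 231 and 103 counts and the proximal end 16, 5, 11, 17, 19 and 25 (-0.34 ± 0.07, edgeR adjusted p = 0.0486, and 0.00522 to 0.440 over the alternatives). On chromosome 19 (plus strand, distal 12664251, proximal 12664185, 66 nt apart) the distal end held 334, 733, 505, 361, 152 and 29 counts and the proximal end 18, 34, 33, 28, 11 and 10 (-0.31 ± 0.07, edgeR adjusted p = 0.0486, and 0.0110 to 0.463 over the alternatives). This last locus differed from the others in that its distal end fell with time (slope of the single end -0.35 ± 0.06 per h, edgeR adjusted p = 5.22e-04), while its proximal end had a slope of -0.033 ± 0.084 (edgeR adjusted p = 0.770).

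The calls, more than the sizes of the differences, depended on single libraries. With control 2, the 4 h library or the 8 h library left out, edgeR called 0 close loci in either direction. Unadjusted p-values under 0.05 then stood at 61 lower and 13 higher distal slopes (no control 2), 72 and 19 (no 4 h) and 35 and 13 (no 8 h). Leaving out control 1, the 1 h or the 2 h library left 8, 3 and 8 calls, all with a lower distal slope. A slope on log2(hours + 1) gave 7 lower and 1 higher. For the locus on chromosome X the slope difference was -0.52 without control 2, -0.52 without 4 h and -0.70 without 8 h, against -0.53 in the full fit. For that on chromosome 10 it was -0.29, -0.30 and -0.33, against -0.30. The largest shrinkage was on chromosome 19, to -0.17 without 8 h, against -0.31. The difference was negative for all 6 named loci in each of these fits, with edgeR adjusted p from 0.0670 to 0.120 with control 2 left out, 0.0577 to 0.0878 with the 4 h library left out and 0.199 to 0.586 with the 8 h library left out. The loci were picked for large negative differences and each fit reuses the remaining libraries, so kept signs and sizes are no separate support. Leaving out control 1 ended the calls on chromosomes X, 5, 19 and 10 (edgeR adjusted p of 0.0504 to 0.0861). The 1 h library did so on chromosomes 5, 17, 15 and 19 (0.0593 to 0.0998), and the 2 h library on chromosomes 17, 15, 19 and 10 (0.0512 to 0.0719).

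Over all 494 close loci the slope difference had a median size of 0.062 per h and a 95th percentile of 0.30, against a median size of 0.085 over all 3844 pairs. Its median with sign was -0.022, against -0.019 over all pairs. The distal end had the lower slope in 305 of 494 close loci (61.7%). It did so in 54.1% of loci 100 to under 500 nt apart and 57.1% of those 500 to 2000 nt apart. For 115 close loci (23.3%) the 95% interval of the difference lay within a 2-fold change over 8 h. Another 19 close loci had an interval wholly outside that range. In the remaining close loci these libraries do not settle whether the ends differed by that much.

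The size depended on distance and depth. It had a median of 0.045 in the 269 loci 21 to 35 nt apart and of 0.089 in the 225 loci 36 to 99 nt apart, against 0.094 in the loci 100 to under 500 nt apart and 0.11 in those 500 to 2000 nt apart. In loci with 60 to under 300 counts at the weaker end the medians were 0.074, 0.12, 0.12 and 0.13 in the same order of distance, and in the class of 1000 or more counts 0.023, 0.052, 0.065 and 0.081. Loci 36 to 99 nt apart therefore lay near those 100 to under 500 nt apart in both count classes, and the loci 21 to 35 nt apart lay lowest. Just inside the limit of 100 nt, 24 loci 90 to 99 nt apart had a median size of 0.14, and just outside it 9 loci 100 to under 110 nt apart had 0.15.

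Loci with distant ends exceeded the range of the close loci more often than the 5% that a 95th percentile leaves. Of the 382 loci 500 to 2000 nt apart, 53 (13.9%) exceeded the 95th percentile of all close loci, 0.30 per h, and 50 (13.1%) that of the loci 36 to 99 nt apart, 0.31. With 300 or more counts at each end, 17 of 132 (12.9%) exceeded the 95th percentile of the loci 36 to 99 nt apart, 0.23, which equals a 3.60-fold change of the ratio over 8 h. All loci share the same 6 libraries, so no test was made between distance classes.

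**Figure D3:**
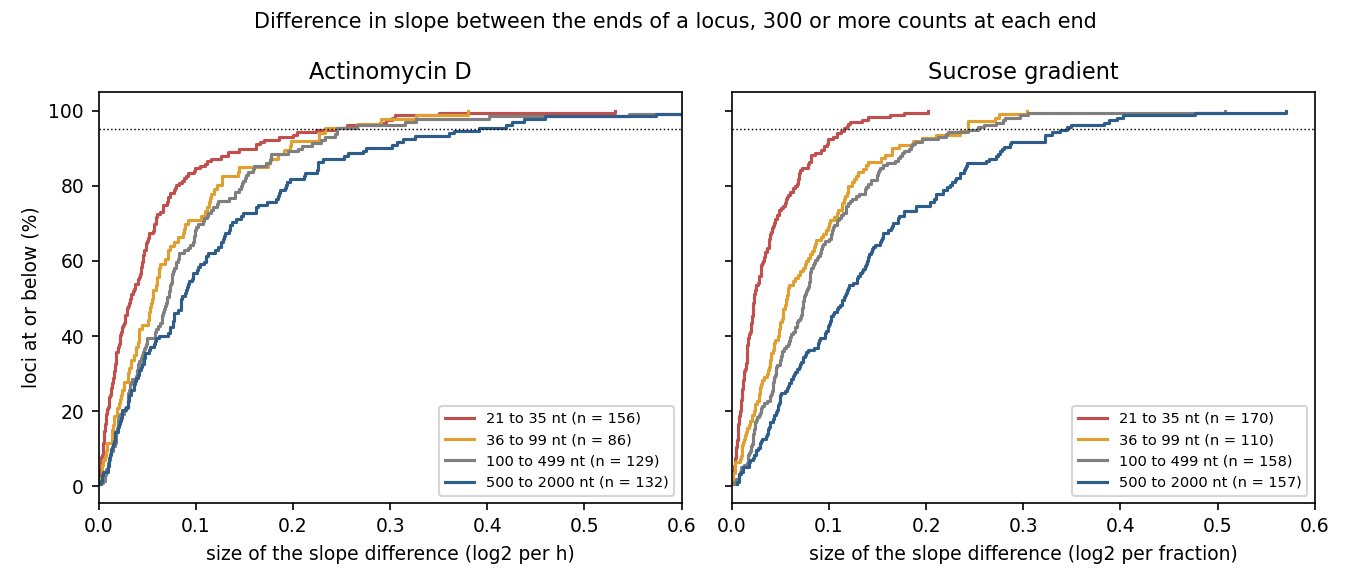
Cumulative share of loci (%) by the size of the slope difference between distal and proximal ends after actinomycin D (log2 per h, left) and over the gradient (log2 per fraction, right), for loci with 300 or more counts at each end, by distance class; the dotted line is 95% and the axis ends at 0.6. Median sizes are 0.033, 0.055, 0.071 and 0.085 per h, and 0.022, 0.056, 0.074 and 0.12 per fraction, from the nearest to the widest class.

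Where both ends of a close locus were called after actinomycin D, they were called in the same direction with TMM scaling. Fitted singly over 16913 sites, 29.4% of sites fell and 18.1% rose relative to the library after actinomycin D (edgeR quasi-likelihood test, adjusted p under 0.05). In 107 of 494 close loci both ends fell, in 92 both rose, in 113 only 1 end was called and in 182 neither was. In 0 loci were the ends called in opposite directions, against 4 of 382 loci 500 to 2000 nt apart. Slopes of both ends correlated across loci with a Pearson r of 0.90 at 21 to 35 nt and 0.84 at 36 to 99 nt, against 0.66 at 500 to 2000 nt. These describe 269, 225 and 382 loci that share all libraries. The split into falls and rises depended on the scaling: both ends fell in 106 and rose in 102 close loci with RLE scaling. They fell in 198 and rose in 8 with the authors' factors, where 1 locus had its ends called in opposite directions. These factors moved the median slope of all sites to -0.18 per h, against -0.038 with TMM. Without control 2, both ends rose in 59 close loci.

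**Figure D4:**
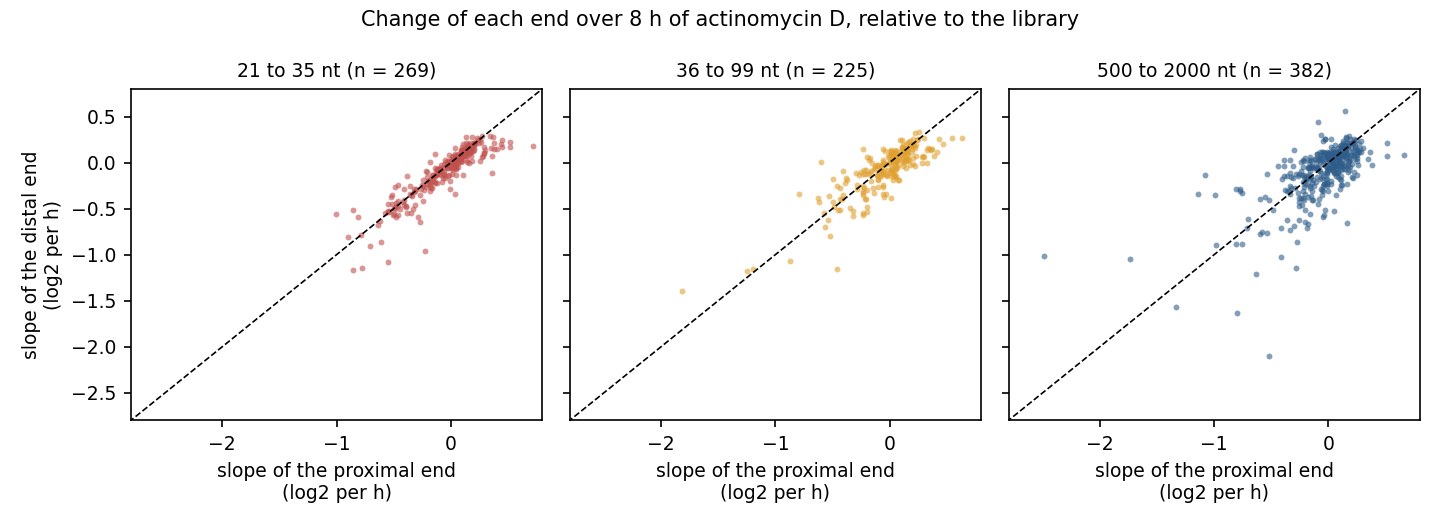
Slope of the distal end against that of the proximal end over 8 h of actinomycin D (log2 per h, relative to the library), 1 point per locus, for ends 21 to 35, 36 to 99 and 500 to 2000 nt apart; the dashed line marks equal slopes. Points keep nearer to the line in the close classes (Pearson r 0.90 and 0.84) than at 500 to 2000 nt (0.66).

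Among the loci whose ends both fell, the steepest named losses, on chromosomes 4 and 16, were nearly complete by 4 h. On chromosome 4 (plus strand, distal 135701300, proximal 135701270, 30 nt apart) the distal end held 2813, 2019, 550, 172, 46 and 16 counts and the proximal end 315, 221, 114, 40, 18 and 6, with slopes of -0.86 ± 0.18 and -0.61 ± 0.09 per h (edgeR adjusted p = 0.0138 and 2.65e-04). On chromosome 16 (plus strand, distal 4650795, proximal 4650766, 29 nt apart) the distal end held 698, 655, 182, 65, 19 and 12 counts and the proximal end 395, 370, 94, 32, 9 and 10 (slopes -0.68 ± 0.15 and -0.64 ± 0.18, edgeR adjusted p = 0.0132 and 0.0304). Both ends on chromosome 16 and the distal end on chromosome 4 lost most of their reads within 1 h. The proximal end on chromosome 4 held 53.9 CPM in control 1, 34.4 in control 2 and 18.7 at 1 h. The proximal end on chromosome 16 was no longer called without control 2 (edgeR adjusted p = 0.0709, and 2.00e-05 to 0.0709 over the alternatives). The distal share was 90.1% in control 2 and 82.8% at 1 h for the locus on chromosome 4, and 63.9% and 65.9% for that on chromosome 16. On chromosome 7 (plus strand, distal 19833234, proximal 19833213, 21 nt apart) the distal end held 59, 44, 45, 21, 0 and 0 counts and the proximal end 230, 201, 220, 117, 38 and 30. The 0 of 30 reads at 8 h allow a distal share of up to 10.0%, against 20.4% in control 1 (Wilson 95% interval 16.2 to 25.4). On chromosome 14 (plus strand, distal 30806398, proximal 30806331, 67 nt apart) the distal end held 360, 409, 173, 97, 29 and 22 counts and the proximal end 45, 28, 46, 28, 3 and 0. Neither of these last 2 loci was called for a difference between its ends (edgeR adjusted p = 0.0811 and 0.913).

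The steepest rises named included the loci on chromosomes 5, X and 10 described above, and 1 on chromosome 3 (minus strand, distal 8802146, proximal 8802205, 59 nt apart). There the distal end held 365, 219, 181, 167, 451 and 392 counts and the proximal end 8, 9, 3, 21, 15 and 65, with slopes of 0.27 ± 0.07 and 0.55 ± 0.08 per h (edgeR adjusted p = 0.0119 and 2.08e-04). The proximal end held 56 counts without the 8 h library, so it met the minimum of 60 only through that library, and its rise is a description. The ends were not called different (-0.28 ± 0.10 per h, edgeR adjusted p = 0.162). Without the 8 h library, the calls of its distal end and of the distal end on chromosome X were lost (edgeR adjusted p = 0.0883 and 0.126), as were those of the proximal end of the falling locus on chromosome 14 (0.10) and of the distal end on chromosome 19 (0.0851). The distal ends on chromosomes 3 and X also lost their calls with the authors' factors (0.0908 and 0.409). Both ends on chromosomes 5 and 10 and the proximal ends on chromosomes X and 3 kept their rising calls in every alternative that covered them. Rises are relative to the rest of each library, and their cause was not tested.

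The half-lives in the authors' deposited table, whose unit the file headers do not state, come from the same libraries as the slopes. Only 5 of the 14 called loci had a value at both ends. It was lacking at the proximal end of 5 of the 6 named ones, those on chromosomes X, 5, 17, 15 and 10, so the comparison leaves them out. Of 462 close loci with a value at both ends, the authors' half-lives differed by a median of 1.22-fold and by 2-fold or more in 42 (9.09%), against 23.5% of loci 500 to 2000 nt apart in the authors' deposited table. The authors' values differed by a median of 1.15-fold at 21 to 35 nt and 1.31-fold at 36 to 99 nt, where 13.7% of loci were 2-fold or more apart. The authors' deposited table gives distal ends a median half-life of 3.29 and proximal ends 3.56. The distal value was the smaller in 280 of 462 close loci (60.6%). It was the smaller in 54.3% of loci 100 to under 500 nt apart and 56.2% of those 500 to 2000 nt apart. With 300 or more counts per end, the share was 61.7% both in close loci and in loci 500 to 2000 nt apart.

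In the sucrose gradient no close locus was called. The same model with a slope on fraction number covered 4283 pairs, and 448 of the 494 close loci had the 60 counts per end it needs. In the table, 2 pairs (0.0467%) had a distal end with a lower slope, towards light fractions, and 13 (0.304%) one with a higher slope. Of the close loci 0 were called in either direction by edgeR. Unadjusted p was under 0.05 for 8 lower and 19 higher, together 6.03% of close loci, below the 12.9% of all 4283 pairs. DESeq2 also called 0 and 0, with 3 and 11 at unadjusted p under 0.05. The size of the slope difference had a median of 0.050 per fraction and a 95th percentile of 0.24, against a median of 0.082 over all pairs. For 161 loci (35.9%) the 95% interval lay within a 2-fold change across the 6 fractions.

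Over all close loci and in well-counted ones, differences in the gradient were larger at larger distances. The median size was 0.035 per fraction at 21 to 35 nt and 0.075 at 36 to 99 nt, against 0.082 at 100 to under 500 nt and 0.11 at 500 to 2000 nt. With 60 to under 300 counts at the weaker end it was 0.080 at 21 to 35 nt and 0.096 at 36 to 99 nt, against 0.096 and 0.095 in the wider classes, with no order from 36 nt up. With 1000 or more counts it was 0.015 in 75 loci 21 to 35 nt apart and 0.055 in 36 loci 36 to 99 nt apart, against 0.073 in 54 loci 100 to under 500 nt apart and 0.10 in 49 loci 500 to 2000 nt apart. With 300 or more counts at each end, 26 of 157 loci 500 to 2000 nt apart (16.6%) exceeded the 95th percentile of the loci 36 to 99 nt apart, 0.24. Of 158 loci 100 to under 500 nt apart, 9 (5.70%) did. The locus 99 nt apart on chromosome 17 had the largest difference among the close loci, 0.51 ± 0.18 per fraction (edgeR adjusted p = 0.265), with 8, 69, 146, 608, 261 and 172 counts at the distal end and 3, 11, 42, 57, 14 and 15 at the proximal end in fractions 1 to 6.

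Few close loci had an end called along the gradient. Fitted singly over 18484 sites, 3.59% fell towards heavy fractions and 0.817% rose (edgeR, adjusted p under 0.05). In 19 of the 448 close loci both ends fell, in 5 both rose, in 7 only 1 end was called, in 417 neither was, and in 0 they were called in opposite directions. On chromosome 2 (plus strand, distal 166891360, proximal 166891338, 22 nt apart) the distal end held 2876, 13181, 7469, 1808, 1152 and 1219 counts in fractions 1 to 6 and the proximal end 2768, 12314, 6990, 1668, 1069 and 1128, most of them in fractions 2 and 3 (slope -1.21 ± 0.26 per fraction at either end, edgeR adjusted p = 0.00270 and 0.00244). Both other named falls had larger distances: chromosome 14 (plus strand, distal 21873145, proximal 21873109, 36 nt apart), with slopes of -1.29 ± 0.25 and -1.51 ± 0.24, and chromosome 14 (minus strand, distal 32896013, proximal 32896059, 46 nt apart), with -0.96 ± 0.26 and -1.20 ± 0.24 (edgeR adjusted p of 0.0227 or less at each of these ends). The ends of the locus on chromosome 10 also both fell, with slopes of -0.91 ± 0.21 and -0.92 ± 0.21 (edgeR adjusted p = 0.00572 and 0.00468). The ends of this locus separated after actinomycin D, and along the gradient their difference was not called (slope difference 0.021 ± 0.071, edgeR adjusted p = 0.996). Without fraction 5, both ends fell in 1 close locus and rose in 0, and of the ends named here only the proximal end at 21873109 was still called (edgeR adjusted p of 0.0530 to 0.188 at the others). Further single lost calls were those of the distal end at 21873145 without fraction 2, the distal end at 32896013 without fraction 6 or with the authors' factors, and both ends on chromosome 10 with the authors' factors. The counts ran from 1 to 32 falling and from 0 to 23 rising with single fractions left out.

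Both named loci with rises in the gradient had ends under 36 nt apart. They were the locus on chromosome 1 shown above (0.66 ± 0.18 and 0.65 ± 0.18 per fraction, edgeR adjusted p = 0.0197 and 0.0215) and 1 on chromosome 19 (minus strand, distal 5940542, proximal 5940564, 22 nt apart, 0.55 ± 0.17 at either end, edgeR adjusted p = 0.0488 and 0.0461). Both lost their calls without fraction 2, 3, 5 or 6, with edgeR adjusted p of 0.0548 to 0.222 there (0.00298 to 0.222 over all alternatives). The locus on chromosome 19 also lost them with RLE scaling, and at its distal end without fraction 4. For both, the chi-square per degree of freedom of the split was under 0.25 (0.0269 and 0.231). Counts of loci with both ends called along the gradient depended on the scaling, with 3 falling and 192 rising under the authors' factors, which moved the median slope of all sites to 0.50 per fraction, against 0.093 with TMM.

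The ribosomes per mRNA in the authors' deposited table were close to equal at both ends. The authors' values differed by a median of 1.03-fold over 494 close loci, by 1.02-fold at 21 to 35 nt and 1.05-fold at 36 to 99 nt, and in 0 of 494 loci by 2-fold or more. Loci 500 to 2000 nt apart differed by a median of 1.07-fold in the authors' deposited table, with 3 of 381 at 2-fold or more.

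The typical split of reads was followed over the libraries as the median over close loci of the log2 distal/proximal ratio. It was 0.39 in each control and 0.33, 0.23, 0.33 and 0.25 after 1, 2, 4 and 8 h, so the values after actinomycin D lay below the controls without a steady order. The distance classes differed. In loci 21 to 35 nt apart the median was 0.27 and 0.25 in control 1 and control 2, then fell in order to 0.23, 0.20, 0.15 and 0.091. In loci 36 to 99 nt apart it was 0.80 and 0.64, then 0.46, 0.29, 0.70 and 0.42, without a steady order. For all close loci, the Pearson r with hours was -0.64 (two-sided exact permutation p = 0.167, and 0.5 adjusted over 6 correlations) and Spearman's rho -0.70 (exact permutation p = 0.144, adjusted 0.35). Without the 4 and 8 h libraries r was -0.99, which rests on the controls and the 1 and 2 h libraries only and was not tested. In fractions 1 to 6 the median was 0.32, 0.29, 0.35, 0.35, 0.34 and 0.32. Its r was 0.39 (exact permutation p = 0.447, adjusted 0.671), rho 0.37 (exact permutation p = 0.497, adjusted 0.746) and r without the first and last fraction 0.65.

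The same median over distant loci was subtracted to ask whether any drift was particular to close ends. Close minus 500 to 2000 nt had r -0.025 with hours (exact permutation p = 0.981, adjusted 0.981) and rho 0.14 (exact permutation p = 0.778, adjusted 0.778). With fraction number it had r -0.85 (exact permutation p = 0.0639, adjusted 0.383) and rho -0.71 (exact permutation p = 0.136, adjusted 0.35). Close minus 100 to under 500 nt had r 0.22 with hours (exact permutation p = 0.642, adjusted 0.77) and -0.46 with fraction number (exact permutation p = 0.356, adjusted 0.671). None of the 6 correlations had an adjusted p under 0.05, so neither a drift of close loci nor a difference from distant ends was shown in either experiment.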

How the data were processed

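The authors' deposited table gives raw counts of 2P-Seq reads at poly(A) sites in mm9, per the file headers, mapped with Bowtie (version not stated), per the submitters' processing notes. The authors also deposited a half-life and ribosomes per mRNA of each site, which they derived from these libraries. Gradient columns are matched to the gradient as a group, not to single samples. Members, classes and tests were chosen with earlier results of these data known.

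Counts were fitted with edgeR 4.0.16 in R 4.3.3 (quasi-likelihood, robust, Benjamini-Hochberg over all pairs or sites, adjusted p under 0.05). Pairs were the 2 most abundant ends of each locus with 2 or more sites, 60 counts each, with 4 residual degrees of freedom. Single ends were scaled by TMM. Ratios used a pseudocount of 0.5, and exact permutations ran over 720 pairings. DESeq2 1.42.0 was an alternative, among others given in the closing section. The fits were tested on simulated data. Each time and fraction has 1 library, and the labels do not state separate cultures for the controls, so p-values reflect only how these libraries scatter around a line, which may be technical. Wilson intervals and limits from a count of 0 (3 counts) cover counting error only.

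Loci are named by a rule: the 6 largest called differences in each direction with 20 or more reads of the pair in every library, the 6 with the most reads at the weaker end, the most abundant at the smallest and largest distances, and the steepest falls and rises with both ends called (4 each for decay, 3 each for the gradient), chromosome 18 excepted.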

Additional observations from a re-analysis of the deposited data

How the results depend on the processing

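No paired analysis was possible because the control and gradient libraries share replicate numbers that only name a library, and each time and fraction has 1 library.

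Close loci called with a lower distal slope after actinomycin D, 14 as reported, numbered 31 with DESeq2, 7 with a slope on log2(hours + 1), 9 with a minimum of 10 counts per end, 6 among loci at least 36 nt apart, a setting chosen after seeing the data, and 0 to 8 with single libraries left out. Called higher distal slopes, 0 as reported, numbered 1 with log2(hours + 1) and 1 with sites linked within 1000 nt. No shares over all pairs are given for these settings, so the counts show neither an excess nor a deficit in close loci. With a minimum of 10 counts the 95th percentile of the decay difference was 0.49 per h, that of the gradient difference 0.37 per fraction and the median size of the gradient difference 0.079, and this median was 0.032 with a minimum of 300, 0.075 at 36 nt or more and 0.050 to 0.084 with single fractions left out.

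Loci with both ends falling and both rising after actinomycin D, 107 and 92 as reported, numbered 198 and 8 under the authors' factors, with 1 opposite, and 41 and 33 at 36 nt or more, where fewer loci are counted. Both rose in 59 to 92 with single libraries left out. In the gradient, 19 and 5 as reported, they numbered 3 and 192 under the authors' factors and 11 and 1 at 36 nt or more, and 3 rose with RLE scaling. With single fractions left out 1 to 32 fell and 0 to 23 rose. No shares over all sites are given for these settings.

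Correlations of the per-library medians were unstable. That of close loci with hours was -0.87 with a minimum of 10 counts (exact permutation p = 0.0222), -0.94 under 50 nt (p = 0.0167) and -0.94 to -0.50 with single libraries left out. Minus loci 100 to under 500 nt apart, it was -0.018 under 50 nt and -0.016 to 0.90 with libraries left out. Minus loci 500 to 2000 nt apart, it was 0.28 and 0.67 with minimums of 10 and 300, 0.025 and 0.084 with pseudocounts of 1 and 5, and -0.24 to 0.47 with libraries left out. Along the gradient, the difference from loci 100 to under 500 nt apart was 0.78 with a minimum of 300 and 0.088 at 36 nt or more, and that from loci 500 to 2000 nt apart 0.096 with a minimum of 300, and -0.87 and -0.92 with pseudocounts of 1 and 5 (exact permutation p = 0.0417 and 0.0222). The cause of these changes was not tested. These p-values are not adjusted.

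Of the other comparisons of a summary value with an alternative, 209 kept their direction and their side of the threshold, and for single named loci and ends 249 did and 78 lost the call with the same sign. At 60 to under 300 counts, 2 of 252 close loci had an interval within a 2-fold change over 8 h, against 70 of 99 with 1000 or more, so depth limits what most close loci can show.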
